A study of Mus musculus with 4 samples.

Results

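The genes described here encode the ESCRT-III membrane repair machinery, in 10 members: Tsg101, Pdcd6ip, Chmp6, Chmp4b, Chmp3, Chmp2a, Chmp2b, Chmp5, Vps4a and Vps4b. They were taken by name from the deposited table, and all 10 had a probe annotated with 1 symbol, among 19938 genes with such a probe. All 10 also lay past a filter on low signal (the gene's highest log2 signal had to reach 6.47, the median of the whole table), as did 12203 genes in all. Signals were measured in macrophages grown from bone marrow of female BALB/c mice with medium conditioned by L929 cells, on 4 Affymetrix arrays. The 4 conditions were LPS/zVAD/Nec-1, LPS/zVAD, LPS and Control (untreated). LPS, a ligand of the receptor TLR4, was given at 10 ng/ml. The caspase inhibitor zVAD was given at 50 µM, and necrostatin-1 (Nec-1), which blocks the kinase activity of RIPK1, at 30 µM. Each condition had 1 array, so every difference below is between single arrays and has no replicate check, no spread between replicates and no p-value, and the number of arrays limits the precision. How long the cells were treated is not stated in the labels. No array with an inhibitor in the absence of LPS, or with LPS and Nec-1 in the absence of zVAD, was analysed here.

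ESCRT-III proteins assemble into filaments on the inner face of a membrane neck and pull it closed, which lets cells bud vesicles into endosomes, divide, reseal the nuclear envelope and shed damaged patches of plasma membrane. The ESCRT-I subunit TSG101 and the adaptor ALIX, encoded by Pdcd6ip, bring the CHMP subunits to the site, and the ATPases VPS4A and VPS4B take the filaments apart. In necroptosis, the form of cell death in which RIPK1 and RIPK3 lead to activation of the membrane-disrupting protein MLKL, ESCRT-III is known to shed membrane that MLKL has broken. Macrophages given LPS with a caspase inhibitor are a common setting of that pathway. These proteins act by assembly and disassembly, and the arrays measure their messenger RNA alone.

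The labelled cell type was checked against its markers. All 8 macrophage markers (Adgre1, Csf1r, Cd68, Cd14, Itgam, Mertk, Lyz2 and Fcgr1) were past the signal filter. Of 36 listed markers of 7 other cell types, 34 were measured and 15 passed the filter, 5 of them from the neutrophil list and 5 from the stromal and endothelial list. The filter let through 12203 of 19938 genes, so passing it says little of cell type. In Control the median log2 signal was 12.65 for the macrophage list, 7.87 for the neutrophil list and 7.06 for the stromal and endothelial list. It was lower for each remaining list. Median log2 signals of the arrays were 6.49 with LPS/zVAD/Nec-1, 6.46 with LPS/zVAD, 6.41 with LPS and 6.52 in Control. Scaling shifted the LPS over Control comparison as a whole: the median log2 ratio of filtered genes moved by 0.11 both when arrays were centred and under cyclic loess. In bulk samples, fewer cells of a type and less RNA per cell cannot be told apart.

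None of the 10 genes reached a 2-fold difference in any of the 4 comparisons made. LPS had 0 of 10 members at least 2-fold from Control, against 15.4% of the 12203 filtered genes, and LPS/zVAD had 0 of 10 at least 2-fold from LPS, against 6.83%. With Nec-1 added, 0 of 10 were 2-fold from LPS/zVAD, against 4.46% of filtered genes, and 0 of 10 were 2-fold from LPS, against 0.615%. The counts of 0 were the same after centring, quantile normalization and cyclic loess. At the background of the last 3 comparisons a count of 0 among 10 genes is close to the share of all genes. In LPS over Control, 10 genes are too few for a count of 0 to set them apart from the 15.4%. Over the 4 arrays together, the span between a gene's highest and lowest signal was 2-fold or more for 0 of 10 members and for 26.6% of filtered genes. After cyclic loess Chmp2b alone passed it, with a span of log2 1.03. The median span was 1.34-fold for the members (log2 0.43) and 1.54-fold for filtered genes (log2 0.62). Within this narrow band the members did not share one pattern. Chmp4b and Chmp2b had the widest spans (log2 0.88 and 0.86), and Pdcd6ip had the narrowest (log2 0.06).

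As a gauge of measurement disagreement inside the arrays, 679 genes had a pair of probes past the filter. The median disagreement of their log2 ratios was 0.13 in LPS over Control, 0.09 in LPS/zVAD over LPS, 0.10 in LPS/zVAD/Nec-1 over LPS/zVAD and 0.10 in LPS/zVAD/Nec-1 over LPS. It covers probe differences within the same RNA and says nothing of variation between cultures.

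**Figure D1:**
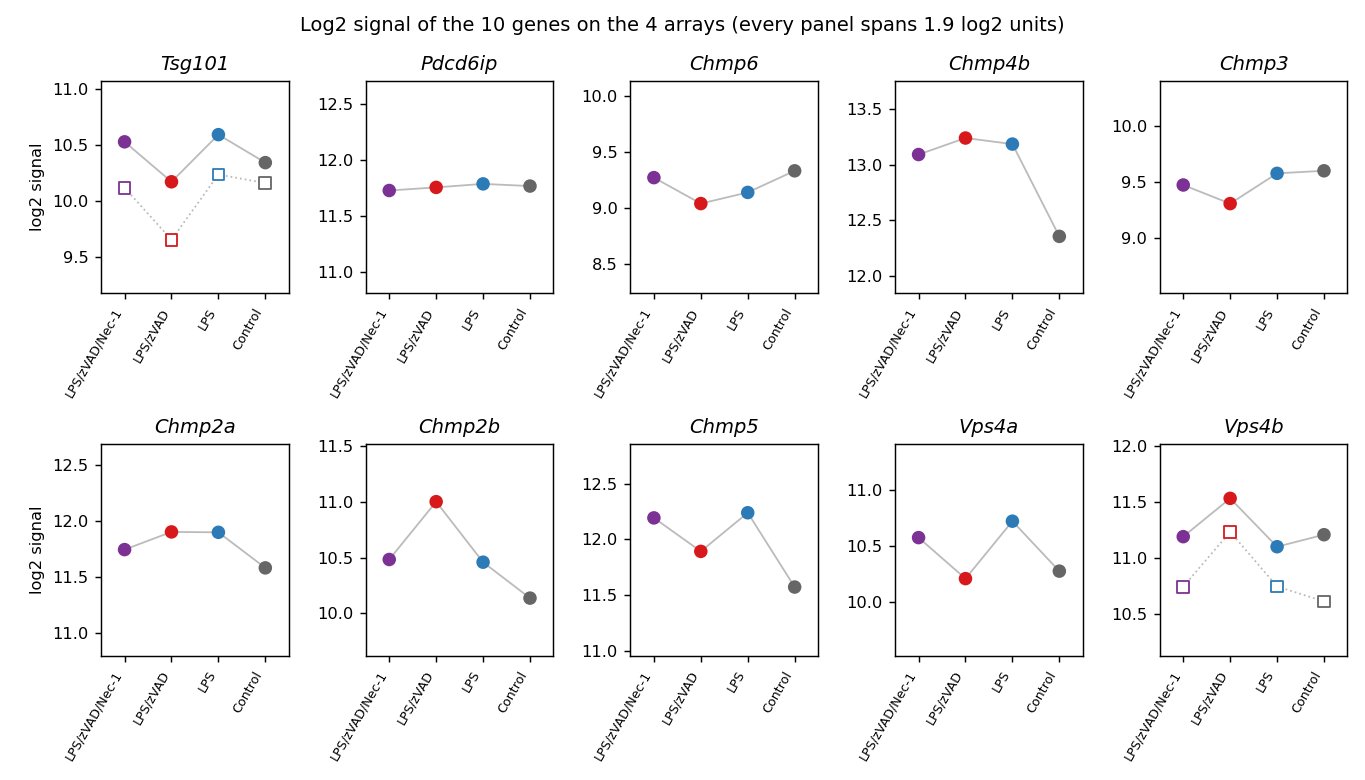
Log2 signal of each of the 10 genes on the 4 arrays, from LPS/zVAD/Nec-1 on the left to Control on the right. Filled circles are the probe that stands for the gene, open squares the second probe of Tsg101 and Vps4b, grey lines join points of the same probe, and each panel spans 1.9 log2 units; the Control point of Chmp4b lies below its other 3 points, and the LPS/zVAD points of Chmp2b and Vps4b lie above theirs.

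Tsg101 encodes the ESCRT-I subunit that binds ubiquitinated cargo and adaptors, and was measured by 2 probes. The probe with the higher mean, which stands for the gene here, had log2 signals of 10.53 with LPS/zVAD/Nec-1, 10.17 with LPS/zVAD, 10.59 with LPS and 10.34 in Control. The other probe had 10.12 with LPS/zVAD/Nec-1, 9.65 with LPS/zVAD, 10.24 with LPS and 10.16 in Control. On both probes LPS/zVAD was the lowest array and LPS the highest. LPS/zVAD was 1.34-fold lower than LPS on the first probe (log2 -0.42) and lower by more on the other (log2 -0.58), and LPS/zVAD/Nec-1 exceeded LPS/zVAD by log2 0.36 and 0.47. Their LPS over Control ratios were 0.25 and 0.08. The probes may not report the same locus. Tsg101 lies on chromosome 7, and 20 of the 20 probes nearest in number to the lower-signal probe belong to genes of that chromosome. For the higher-signal probe 19 of 20 belong to chromosome 15, where the gene table of GRCm38.p6 places the pseudogene Tsg101-ps within the span of the probe's nearest numbered neighbours (5848 kb). Probe positions were not used here, and probe numbers serve only as a hint of them.

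Pdcd6ip encodes ALIX, which binds CHMP4 proteins directly and can start ESCRT-III assembly without ESCRT-I. Its log2 signals were 11.73 with LPS/zVAD/Nec-1, 11.76 with LPS/zVAD, 11.79 with LPS and 11.77 in Control. The 4 arrays lay within 1.04-fold of one another, and 99.7% of filtered genes had a span at least as wide. Of its 4 log2 ratios, all 4 were smaller in size than the median disagreement between probes of the same gene, and each of them changed sign under at least 1 of the other scalings.

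Chmp6 encodes the ESCRT-III subunit that links ESCRT-II to the filament. It stood at log2 9.27 with LPS/zVAD/Nec-1, 9.04 with LPS/zVAD, 9.14 with LPS and 9.33 in Control. As deposited, its lowest array was LPS/zVAD and its highest Control, 1.23-fold apart. After quantile normalization and cyclic loess, LPS was the lowest and LPS/zVAD/Nec-1 the highest, with spans of log2 0.23 and 0.18. In the deposited values LPS was 1.14-fold lower than Control (log2 -0.19), the largest difference below Control among the members in that comparison.

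Chmp4b encodes the main filament-forming subunit and had the widest span of the 10 genes. Its log2 signals were 13.09 with LPS/zVAD/Nec-1, 13.24 with LPS/zVAD, 13.18 with LPS and 12.36 in Control. The 3 arrays with LPS lay within 0.15 of one another and all stood above Control. LPS was 1.77-fold higher than Control (log2 0.83), and 20.7% of filtered genes differed by at least as much in either direction. Adding zVAD to LPS gave a log2 ratio of 0.05, and adding Nec-1 to LPS/zVAD gave -0.15. The single Control array carries the whole difference.

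Chmp3, Chmp2a and Chmp2b encode the subunits that join the filament late, narrow it and recruit VPS4. Chmp3 had 9.48 with LPS/zVAD/Nec-1, 9.31 with LPS/zVAD, 9.58 with LPS and 9.60 in Control (log2 signals), with LPS/zVAD the lowest array. LPS/zVAD was 1.21-fold lower than LPS for Chmp3 (log2 -0.27), a ratio that shrank to -0.13 after cyclic loess. Chmp2a had 11.74 with LPS/zVAD/Nec-1, 11.90 with LPS/zVAD, 11.90 with LPS and 11.58 in Control. All 3 arrays with LPS stood above Control for Chmp2a, LPS by 1.25-fold (log2 0.32, and 0.17 after quantile normalization).

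Chmp2b, the paralog of Chmp2a that in human is mutated in a form of frontotemporal dementia, followed another pattern. Its log2 signals were 10.48 with LPS/zVAD/Nec-1, 10.9998 with LPS/zVAD, 10.46 with LPS and 10.14 in Control. LPS/zVAD was the highest array, and LPS/zVAD/Nec-1 lay 0.02 from LPS. LPS/zVAD was 1.46-fold higher than LPS (log2 0.54) and LPS/zVAD/Nec-1 was 1.43-fold lower than LPS/zVAD (log2 -0.52); these ratios share the LPS/zVAD array and are not independent of each other. In the first of these comparisons 23.8% of filtered genes differed by at least as much in either direction, and in the other 19.5%. LPS over Control was 0.32 for Chmp2b, nearly the ratio of Chmp2a.

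Chmp5 encodes a subunit that binds LIP5, the VPS4 cofactor encoded by Vta1. Its log2 signals were 12.19 with LPS/zVAD/Nec-1, 11.89 with LPS/zVAD, 12.24 with LPS and 11.57 in Control. Control was the lowest array and LPS/zVAD came next. LPS was 1.59-fold higher than Control (log2 0.66, and 0.53 after quantile normalization). LPS/zVAD was 1.27-fold lower than LPS (log2 -0.35), and LPS/zVAD/Nec-1 stood 0.30 above LPS/zVAD and 0.05 below LPS.

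The VPS4 ATPase genes ran in opposite directions when zVAD was added to LPS. Vps4a had log2 signals of 10.58 with LPS/zVAD/Nec-1, 10.21 with LPS/zVAD, 10.72 with LPS and 10.28 in Control. The first probe of Vps4b had 11.19 with LPS/zVAD/Nec-1, 11.53 with LPS/zVAD, 11.10 with LPS and 11.21 in Control. As deposited, LPS/zVAD was thus the lowest of 4 arrays for Vps4a and the highest of 4 for Vps4b. After cyclic loess Control was the lowest array for Vps4a (LPS over Control 0.49, LPS/zVAD over LPS -0.39). In the deposited values LPS/zVAD was 1.43-fold lower than LPS for Vps4a (log2 -0.51) and 1.35-fold higher for Vps4b (log2 0.43). With Nec-1 added to LPS/zVAD, Vps4a was higher by log2 0.37 and Vps4b had a ratio of -0.34. The direction of these 4 ratios was the same under each scaling tried. Their sizes were common. In LPS/zVAD over LPS, 25.6% of filtered genes differed in either direction by at least as much as Vps4a, and 32.7% by as much as Vps4b. With Nec-1 added to LPS/zVAD these shares were 33.0% and 35.6%.

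A second probe of Vps4b had 10.74 with LPS/zVAD/Nec-1, 11.23 with LPS/zVAD, 10.74 with LPS and 10.61 in Control. LPS/zVAD was again the highest array, 1.40-fold above LPS (log2 0.49). The probes of Vps4b disagreed in LPS over Control, at -0.11 for the first and 0.13 for the second. Vps4b lies on chromosome 1, as do the genes of 19 of the 20 probes nearest in number to the first probe, while 19 of 20 around the second belong to chromosome 14, so the second may report another copy of the sequence. Paralogs as alike as Vps4a and Vps4b may also share hybridisation, which was not tested.

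Promoters are shown for the genes with the widest spans, Chmp4b and Chmp2b, and for the VPS4 pair, whose ratios with zVAD differed in sign, in windows of 250 bases before and 50 bases after the RefSeq gene start, with CpG dinucleotides in capitals.
Chmp4b promoter (GRCm38.p6, chr2:154656776-154657075, + strand): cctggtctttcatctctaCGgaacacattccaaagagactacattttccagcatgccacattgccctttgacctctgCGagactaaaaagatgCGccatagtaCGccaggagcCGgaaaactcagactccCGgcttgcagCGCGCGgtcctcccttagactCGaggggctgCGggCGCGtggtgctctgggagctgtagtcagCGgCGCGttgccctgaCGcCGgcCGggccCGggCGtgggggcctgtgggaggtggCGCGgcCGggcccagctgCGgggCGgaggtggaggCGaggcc
Chmp2b promoter (GRCm38.p6, chr16:65562713-65563012, - strand): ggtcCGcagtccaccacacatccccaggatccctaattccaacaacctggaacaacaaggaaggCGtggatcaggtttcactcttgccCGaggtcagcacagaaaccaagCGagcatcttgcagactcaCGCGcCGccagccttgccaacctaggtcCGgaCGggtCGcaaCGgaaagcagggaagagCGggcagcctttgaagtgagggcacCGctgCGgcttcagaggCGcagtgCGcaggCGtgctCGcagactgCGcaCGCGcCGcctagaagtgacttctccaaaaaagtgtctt
Vps4a promoter (GRCm38.p6, chr8:107031019-107031318, + strand): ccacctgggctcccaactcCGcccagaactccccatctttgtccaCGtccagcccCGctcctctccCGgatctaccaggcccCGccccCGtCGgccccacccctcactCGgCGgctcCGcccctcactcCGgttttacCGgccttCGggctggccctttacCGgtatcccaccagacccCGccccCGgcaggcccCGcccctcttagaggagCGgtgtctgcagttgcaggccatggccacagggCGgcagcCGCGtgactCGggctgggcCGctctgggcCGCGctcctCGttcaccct
Vps4b promoter (GRCm38.p6, chr1:106796676-106796975, - strand): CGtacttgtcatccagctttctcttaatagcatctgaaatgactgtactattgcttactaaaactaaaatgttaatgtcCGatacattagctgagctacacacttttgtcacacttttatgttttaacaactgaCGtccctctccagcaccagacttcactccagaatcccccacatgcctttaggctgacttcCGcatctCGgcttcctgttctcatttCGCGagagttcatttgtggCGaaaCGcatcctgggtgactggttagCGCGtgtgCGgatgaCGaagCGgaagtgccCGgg
The RefSeq table held windows for 9 of the 10 genes, 10 windows in all since Chmp3 had 2. They held between 14 and 38 CpG (median 24), against a median of 20 in 12367 windows of filtered genes, of which 67.9% held 14 or more. The Vps4a window was 71.7% G or C with 26 CpG, and the Vps4b window 47.0% with 15. In each window 3 motifs were searched on both strands, with each start position counted once. TGANTCA (AP-1, in 7.81% of all 32851 windows) matched in 0 of the 10. TGACGTCA (cAMP response element, 1.79% of all windows) matched in Chmp2a alone, from base 254 of the window, and CACGTG (E-box, 7.15%) in Pdcd6ip alone, from base 213. A missing match says only that these letters are not in these windows.

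LPS over Control gave the members' highest median of the 4 comparisons. Of the 10 genes, 7 had a ratio above 0, against 39.9% of filtered genes, and the members' median log2 ratio was 0.28, against -0.12 over all filtered genes. The members' median stayed above 0 under each scaling, between 0.17 (quantile) and 0.39 (centred arrays). The background moved as well. Of filtered genes, 49.0% were above 0 with centred arrays (median -0.01), 49.7% after cyclic loess (-0.004) and 42.4% after quantile normalization (-0.08). Members above 0 numbered 8, 8 and 6 under these scalings, in that order. All 10 members also passed a filter at the upper quartile, where 48.1% of genes were above 0 (median -0.03). At a smaller threshold of 1.5-fold, 2 of 10 members (Chmp4b and Chmp5) were apart, against 31.6% of filtered genes. Both were higher and 0 members were lower, against 14.4% of filtered genes higher and 17.3% lower. After quantile normalization Chmp5 lay under 1.5-fold. Nothing particular to the list follows from 10 genes on 2 arrays.

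Adding zVAD to LPS spread the members in both directions. Of the 10, 4 had a ratio above 0 and 6 below, and the median of -0.07 turned to 0.01 after quantile normalization and 0.05 after cyclic loess; over all filtered genes it was -0.05 as deposited. The median size of a member's difference was log2 0.31, against 0.28 over filtered genes. Chmp2b (0.54) and Vps4b (0.43) stood at the high end, and Vps4a (-0.51), Tsg101 (-0.42) and Chmp5 (-0.35) at the low end. On its lower-signal probe Tsg101 had -0.58, below Vps4a and just short of 1.5-fold. At 1.5-fold 0 of 10 members were apart as deposited, against 21.1% of filtered genes, and 1 member was, Chmp2b, after quantile normalization and after cyclic loess (0.66 in the last).

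With Nec-1 added to LPS/zVAD, 5 members had a ratio above 0 and 5 below, with a median of 0.07, the same as over all filtered genes to the digits given. Vps4a (0.37), Tsg101 (0.36) and Chmp5 (0.30) stood highest, and Chmp2b (-0.52) and Vps4b (-0.34) lowest. On its lower-signal probe Tsg101 had 0.47, above Vps4a. This comparison shares the LPS/zVAD array with the preceding one. Of the 10 members 0 were 1.5-fold apart, against 15.5% of filtered genes.

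LPS/zVAD/Nec-1 and LPS differed least. The members' ratios ran between -0.15 (Chmp2a) and 0.13 (Chmp6), and the median size was log2 0.09, against 0.15 over filtered genes. The median ratio of -0.06 turned to 0.00 after cyclic loess, and over all filtered genes it was -0.02. At 1.5-fold 0 of 10 members and 3.49% of filtered genes were apart.

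**Figure D2:**
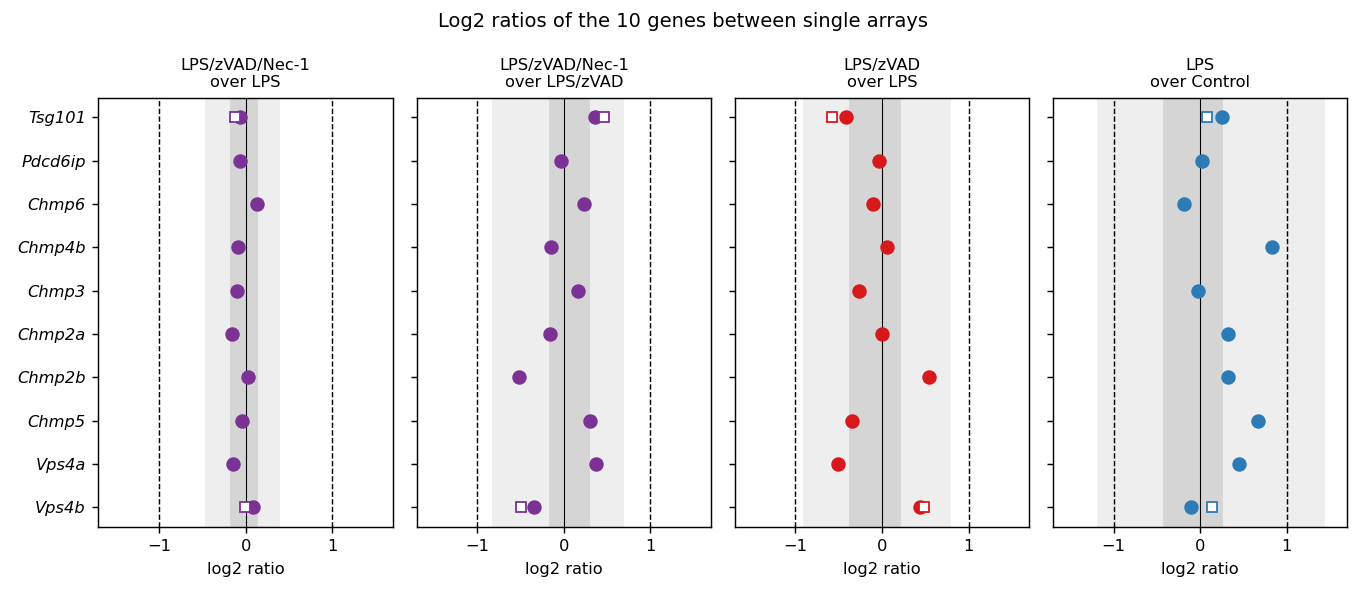
Log2 ratio of each gene in the 4 comparisons between single arrays. Filled circles are the probe that stands for the gene, open squares the second probe, dark and light grey bands hold the middle 25 to 75% and 5 to 95% of the 12203 filtered genes, and dashed lines mark 2-fold; no point reaches a dashed line, and Vps4a and Vps4b lie on opposite sides of 0 in LPS/zVAD over LPS.

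The marker lists are given beside the genes that were lowest with LPS/zVAD as deposited (Tsg101, Vps4a, Chmp3 and Chmp6). Of the neutrophil list's 6 measured members 5 passed the filter, and the list's summed linear signal was 2205 with LPS/zVAD/Nec-1, 1796 with LPS/zVAD, 2466 with LPS and 2006 in Control. The macrophage list summed to 65587 with LPS/zVAD/Nec-1, 61562 with LPS/zVAD, 70272 with LPS and 57627 in Control. The B cell list, with 1 of 4 measured markers past the filter, summed to 383 with LPS/zVAD/Nec-1, 340 with LPS/zVAD, 465 with LPS and 574 in Control. In LPS/zVAD over LPS these 3 sums were lower, and the sums of the other 5 lists were higher. With LPS/zVAD against LPS they came to 281 against 235 for T and NK cells, 321 against 302 for dendritic cells, 125 against 116 for mast cells and basophils, 781 against 766 for stromal and endothelial cells, and 192 against 179 for erythroid cells. The part of any of these lists in the ratios of the ESCRT genes was not tested.

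The rest of the ESCRT and repair machinery was read from 5 further lists, and differences of 2-fold or more did occur there. Among 9 measured genes of other ESCRT-III subunits and VPS4 cofactors, 3 were higher with LPS than in Control and 0 lower (median 0.27), against 8.24% of filtered genes higher and 7.2% lower. They were Mitd1, which takes part in the final cut of cell division (log2 ratio 2.17), Chmp1b, a late ESCRT-III subunit (1.65), and Ist1, its partner (1.16). Chmp1b had log2 signals of 9.78 with LPS/zVAD/Nec-1, 11.36 with LPS/zVAD, 9.62 with LPS and 7.97 in Control. It was the 1 gene of this list at least 2-fold higher with LPS/zVAD than with LPS (3.35-fold, log2 1.75), against 3.25% of filtered genes higher and 3.59% lower by 2-fold. It was also the 1 gene at least 2-fold lower with LPS/zVAD/Nec-1 than with LPS/zVAD (log2 -1.58), against 3.32% of filtered genes lower and 1.14% higher. No member of the 10 reached 2-fold in these comparisons, although Chmp2b and Vps4b also had their highest signal with LPS/zVAD. So did Chmp4b and Chmp2a, by small margins over LPS (log2 0.05 and 0.004). Chmp1a, the relative of Chmp1b, had a log2 ratio of -0.76 in LPS/zVAD over LPS, opposite in sign to Chmp1b. Vta1, which stimulates VPS4, had 11.03 with LPS/zVAD/Nec-1, 10.88 with LPS/zVAD, 10.95 with LPS and 10.26 in Control.

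Upstream of the filament, 13 of 14 listed genes of ESCRT-0, ESCRT-I and ESCRT-II were measured. With LPS, 1 was at least 2-fold higher than Control (Vps37c, 1.49) and 1 lower (Mvb12b, -1.44), both ESCRT-I subunits that partner with Tsg101; 1 of 13 is near the 8.24% of filtered genes higher and the 7.2% lower. With LPS/zVAD 1 was higher than with LPS, the ESCRT-I subunit Vps37b (1.06, and -0.93 with Nec-1 added), and 0 were lower, against 3.25% and 3.59% of filtered genes. The list's median in LPS/zVAD over LPS was -0.32, and lay between -0.36 and -0.18 over the scalings. Of the ESCRT-0 genes, Stam2 and Stam had ratios of 0.73 and 0.64 there, and Hgs had -0.215. The ESCRT-II genes Vps25, Snf8 and Vps36 had -0.56, -0.55 and -0.46. With Nec-1 added to LPS/zVAD, Stam2, Stam and Hgs had -0.72, -0.56 and 0.004, and Vps25, Snf8 and Vps36 had 0.50, 0.33 and 0.40. None of these 6 genes reached 2-fold in these comparisons. Hgs, Snf8 and Vps36 are named here after their values were seen.

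Of 9 ESCRT partners and deubiquitinases, 1 was higher with LPS (Sdc4, syndecan-4, whose release in exosomes uses ALIX, 1.59) and 1 lower (Cep55, which recruits ALIX and TSG101 to the midbody, -1.80), again near the shares of all filtered genes (8.24% higher and 7.2% lower). Stambpl1, a deubiquitinase related to the ESCRT-bound AMSH, was higher with LPS/zVAD than with LPS (1.08) and lower with LPS/zVAD/Nec-1 than with LPS/zVAD (-1.34). It was the 1 gene of these 9 past 2-fold in either comparison. Of filtered genes, 3.25% were 2-fold higher when zVAD was added and 3.32% were 2-fold lower when Nec-1 was added.

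Among 17 annexins and other repair genes, 2 were higher with LPS (Anxa7 at 1.28, whose protein acts with ALG-2, a calcium sensor that brings ALIX to damaged membrane, and Anxa6 at 1.26, which caps membrane lesions) and 0 lower, a share near that of filtered genes (8.24% higher, 7.2% lower). In that list 0 were 2-fold apart when zVAD was added to LPS or when Nec-1 was added to LPS/zVAD. Of filtered genes 6.83% and 4.46% were, so 0 among 17 genes is close to the share of all genes. Capn1 had the list's largest ratios in size in these comparisons, at -0.81 and 0.85. Of 5 membrane damage effectors, 2 were at least 2-fold higher with LPS and 0 lower, against 8.24% and 7.2% of filtered genes. They were Mlkl (2.93) and Gsdmd, which encodes the pyroptosis pore protein (1.91). Ninj1, of the same list, lay just under 2-fold as deposited (0.99). Its ratio ran between 0.86 and 1.09 over the scalings, so the count for this list depends on the scaling. Mlkl had 11.73 with LPS/zVAD/Nec-1, 11.73 with LPS/zVAD, 11.86 with LPS and 8.93 in Control, and all 3 arrays with LPS stood above Control. Ripk3 had 9.40 with LPS/zVAD/Nec-1, 9.74 with LPS/zVAD, 9.44 with LPS and 9.84 in Control. In LPS over Control Mlkl was 7.63-fold higher, beside 1.77-fold for Chmp4b, the largest such ratio among the 10 ESCRT genes. The 2-fold calls named in this and the 3 preceding paragraphs held under each scaling.

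**Figure D3:**
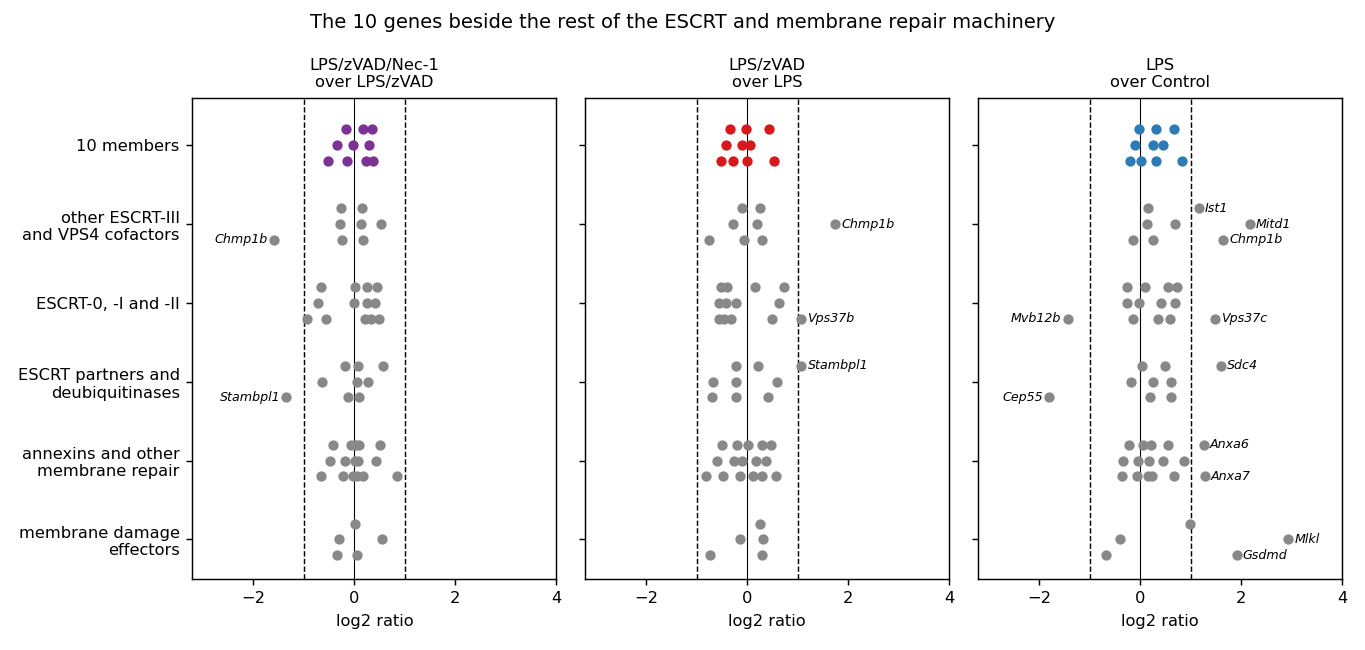
Log2 ratios of the 10 genes (coloured) and of the genes past the signal filter in 5 further lists (grey) in 3 comparisons between single arrays. Dashed lines mark 2-fold and genes beyond them are named; all coloured points lie between the dashed lines, while Chmp1b lies beyond them in all 3 panels.

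The genes most like Chmp4b and Chmp2b were named by the distance between log2 signals over the 4 arrays after each gene's mean was subtracted. Nearest to Chmp4b were Ptcd1, a mitochondrial RNA-binding protein gene, Ube2h, a ubiquitin-conjugating enzyme gene, and Esd, the gene of S-formylglutathione hydrolase (distances 0.03, 0.04 and 0.07). Nearest to Chmp2b were Zfp867, Atp6v1h, a subunit of the lysosomal proton pump, and Slc6a8, the creatine transporter (0.05, 0.05 and 0.07). Zfp867 was dim, at 6.06 with LPS/zVAD/Nec-1, 6.52 with LPS/zVAD, 5.97 with LPS and 5.65 in Control, and reached the signal filter on the LPS/zVAD array alone. Atp6v1h had 10.70 with LPS/zVAD/Nec-1, 11.23 with LPS/zVAD, 10.74 with LPS and 10.37 in Control, a profile like that of Chmp2b at every array. With 4 points such likeness is common: 108 genes lay within 0.2 of Chmp4b and 93 within 0.2 of Chmp2b.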

How the data were processed

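Gene-level array signals of 4 conditions (1 array each) were analysed. The deposited values are on a log2 scale, read from their range, and come from the authors' use of Affymetrix Expression Console, as the submitters' processing notes record. Its version, and the background correction, summarisation and normalization it applied, are not stated there. Groups came from sample titles. Of 35556 probes, 21789 had 1 symbol; where a gene had several, the brightest on average was used. Genes with a highest log2 signal of at least 6.47 were counted, and 0 columns of sample values were left unused. Comparisons are differences of log2 signals between single arrays, with 2-fold as a rule of size and no test. The step that counts genes was tested on simulated data. Promoter windows came from RefSeq, GRCm38.p6. Quantile and cyclic loess scalings used limma 3.58.1 in R 4.3.3, and other steps used pandas 2.3.3 in Python 3.11.15. Named genes were all 10 members, the 2-fold genes and up to 4 of the largest ratios per comparison in 5 pathway lists, Mlkl and Ripk3, and the 3 genes nearest to the 2 members of widest span. Members and lists were chosen with earlier results of these data known.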

Additional observations from a re-analysis of the deposited data

How the results depend on the processing

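No paired analysis was possible because each condition had 1 array, and leaving out a replicate was not possible either. Alternatives were 3 scalings, 2 signal filters, the mean over a gene's probes, a 1.5-fold threshold and, added after seeing the data, the lower-signal probe of Tsg101 and Vps4b. A ratio, span or median was taken as moved when it shifted by more than the median disagreement between probes of the same gene. A median that changed sign was taken as reversed, whatever the size of the shift. For counts the rule was a change of more than 1.5-fold, or any change from 0. Of the members' 40 log2 ratios, 29 kept their sign under all alternatives and 11 did not, and those 11 stayed within 0.23 of 0. At 1.5-fold, 2 members were apart in LPS over Control, and filtered genes apart numbered 3861 in LPS over Control, 2578 in LPS/zVAD over LPS, 1891 in LPS/zVAD/Nec-1 over LPS/zVAD and 426 in LPS/zVAD/Nec-1 over LPS, as a lower threshold takes in more genes. The members' median in LPS/zVAD over LPS turned to 0.00899 under quantile normalization and 0.0471 under cyclic loess, and in LPS/zVAD/Nec-1 over LPS to 0.00027 under cyclic loess. Cyclic loess moved the log2 span of Chmp2b to 1.03, just past 2-fold, that of Chmp3 to 0.13 and that of Tsg101 to 0.30, and quantile normalization moved that of Chmp5 to 0.54. With the lower-signal probe the spans of Tsg101 and Vps4b were 0.58 and 0.62. The cause of these shifts was not tested. Among genes at least 2-fold apart in LPS/zVAD over LPS, 47.5% were higher as deposited (396 higher, 438 lower), 59.7% after cyclic loess (462 higher, 312 lower) and 57.8% after quantile normalization (433 higher, 316 lower). A ratio near the top of the array range can be compressed, and depth in the sense of read counts does not apply to these values.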
